A study of Homo sapiens with 8 samples.

Results

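The Wnt ligands, their receptors and their secreted and intracellular regulators were followed in SH-SY5Y cells with and without retinoic acid differentiation. The 50 genes were taken by symbol from a list of the pathway, out of 52719 genes in the table. That list was chosen with earlier results of these data known, and it does not hold every gene of the pathway. They comprised 9 Wnt ligands, 9 Frizzled receptors, 5 other receptors, 7 secreted inhibitors, 4 genes of the R-spondin branch, 2 membrane ubiquitin ligases with NKD1, 5 genes of beta-catenin and its destruction complex, 4 TCF/LEF transcription factors and 4 planar cell polarity genes.

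Wnt proteins are secreted lipid-modified ligands that bind Frizzled receptors at the cell surface. In the beta-catenin branch, a Frizzled and LRP5 or LRP6 together stop the destruction complex (APC, AXIN1, AXIN2, GSK3B) from marking beta-catenin for breakdown, and beta-catenin then binds TCF/LEF factors on DNA. Other branches act through ROR1, ROR2, RYK and the planar cell polarity proteins, and in the embryo Wnt signals help to induce the neural crest, from which sympathetic neurons and neuroblastoma arise.

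The mRNA of 4 libraries of undifferentiated SH-SY5Y cells (replicates 17 to 20) was sequenced beside that of 4 libraries of cells given 9-cis retinoic acid, a ligand of retinoic acid and retinoid X receptors, at 1 µM for 7 days (replicates 21 to 24). SH-SY5Y is an established human neuroblastoma line of a single cloned lineage, and both groups were grown in medium with foetal calf serum. No vehicle, dose or day is given for the undifferentiated cells, so time in culture and vehicle cannot be told apart from the retinoid. Nothing states that replicates came from separate cultures, so each p-value reflects only how these libraries vary, which could be technical.

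Levels are given in TPM, a length-corrected share of the transcripts in a library, summed over the transcripts of each gene, so genes can be compared with each other. TPM carries no read depth, which is unknown. A library held 16265 to 17370 genes at 1 TPM or more. The lane was 7 for undifferentiated replicates 17 and 18 and 8 for the remaining 6 libraries. The retinoid target genes CYP26A1 (0.242 ± 0.372 to 340.1 ± 36.8 TPM, SD, n = 4 in each group) and RARB (6.25 ± 0.439 to 105 ± 1.44 TPM) were higher in all 4 differentiated libraries. Among 10 sympathetic noradrenergic markers, 9 were tested, of which 1 rose and 7 fell, where 33.9% of all genes tested rose and 17.4% fell. Their summed level went from 1634 to 1726 TPM in undifferentiated libraries to 1097 to 1293 TPM in differentiated ones. TH, which defines the catecholamine phenotype, was at or below 0.0929 TPM on average in both groups. Blood markers summed to at most 1.13 TPM and endothelial markers to at most 0.29 TPM in any library.

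Of the 50 genes, 36 reached a mean of 1 TPM over the 8 libraries and were tested. With limma on log2(TPM+1), 24 rose, 5 fell and 7 did not pass at a Benjamini-Hochberg adjusted p under 0.05. Over all 17077 genes tested, 33.9% rose and 17.4% fell, and the median log2 fold change was 0.10, against 0.43 over the 36. The groups did not overlap for 27 of the 36, with the differentiated libraries above for 23 and below for 4, where the same held for 49.6% of all genes tested (32.3% above and 17.3% below). WNT5A, WNT5B, WNT6, WNT11 and FZD5 reached the filter only through the differentiated libraries. Among the 31 at 1 TPM or more in both groups, 19 rose and 5 fell with a median of 0.37, beside 33% and 17.6% of 15792 such genes. In bulk RNA, fewer cells that express a gene and less of its RNA per cell cannot be told apart.

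The scaling of the libraries moved the whole distribution. The median log2 fold change of all tested genes was 0.10 in the deposited TPM, -0.02 after median-of-ratios scaling and -0.07 after quantile normalization. Genes called higher and lower over the whole table then numbered 4628 and 4455 in the first and 4173 and 5098 in the second, against 5791 and 2970 as deposited. Among the members, median-of-ratios scaling gave 20 rises and 5 falls, beside 27.1% and 26.1% of all genes, and quantile normalization 16 and 5, beside 24.4% and 29.9%. Within lane 8 there were 18 rises and 3 falls (26% and 11% of all genes), and without differentiated replicate 22 there were 26 and 5 (38.6% and 18.1%). These member counts keep the genes that reached the filter only through the differentiated libraries. WNT5A, WNT5B, WNT6, WNT11 and FZD5 were all among the 20 rises, and WNT5A, WNT11 and FZD5 among the 16. Small changes are to be read against these shifts.

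**Figure D1:**
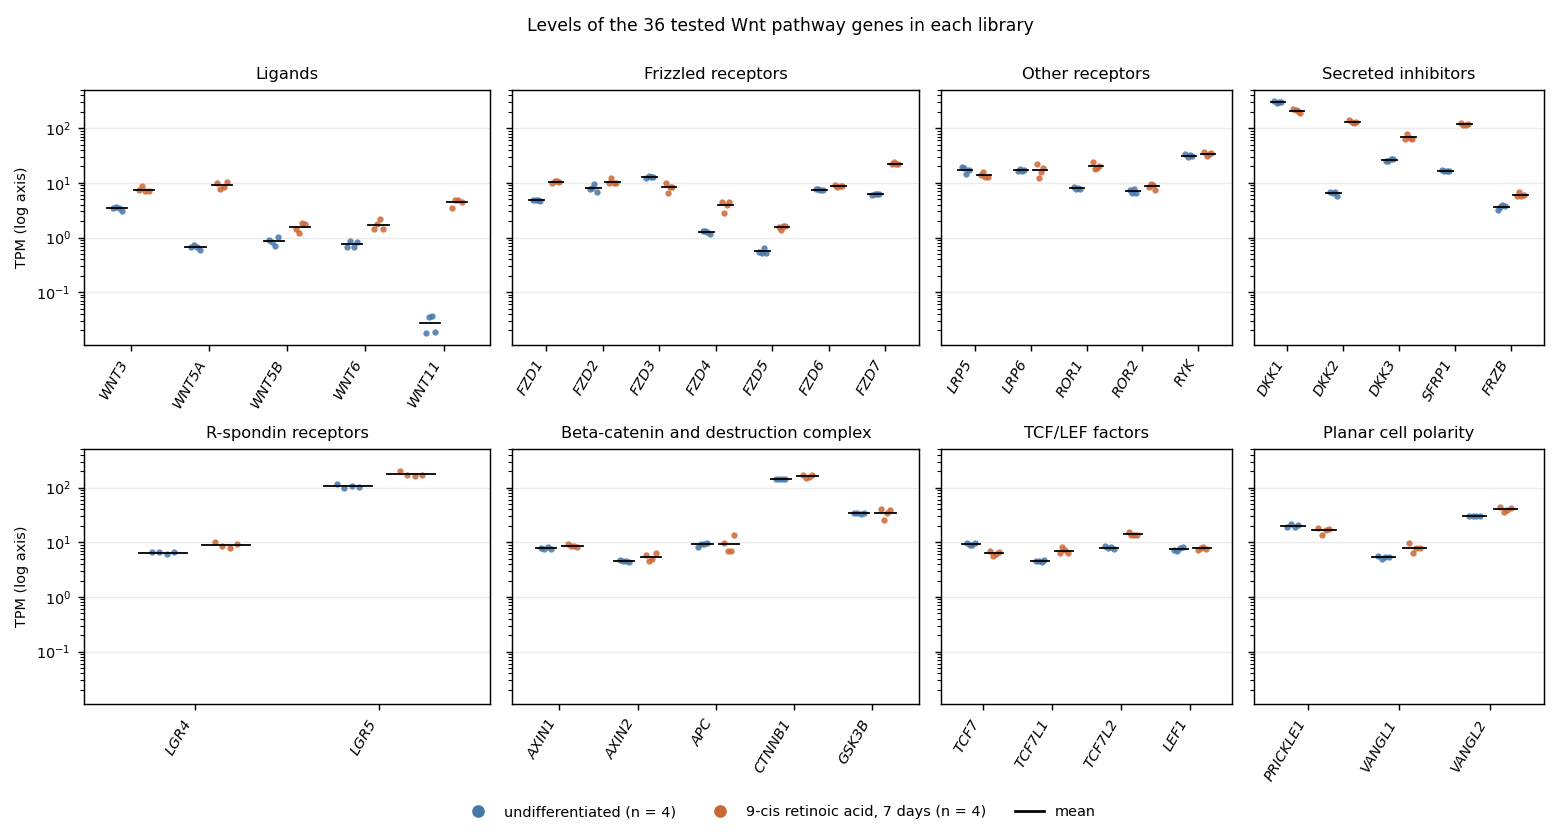
TPM on a log axis of the 36 tested genes in each library, grouped by role, with undifferentiated libraries in blue, differentiated libraries in orange and the group mean as a bar. DKK2, SFRP1, WNT5A, WNT11 and FZD7 show the widest gaps between groups, while LRP6, APC, GSK3B and LEF1 overlap.

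The start regions of the genes are shown because retinoid receptors and TCF/LEF factors bind short DNA motifs near genes. RefSeq promoter windows on GRCh38.p14, each the 250 bases before a start site, were found for 36 of the 50 genes (46 windows), and 34943 windows of the same length served as the background. The 3 below belong to DKK1, the most abundant inhibitor, which fell, and to ROR1 and FZD4, receptors that rose, and hold no UTR base in the annotation. They lie at chr10:52314031-52314280 on the plus strand, chr1:63773767-63774016 on the plus strand and chr11:86955396-86955645 on the minus strand. Capitals mark a TCF-type motif, and all lower case means that none of the searched letters occurred.
DKK1: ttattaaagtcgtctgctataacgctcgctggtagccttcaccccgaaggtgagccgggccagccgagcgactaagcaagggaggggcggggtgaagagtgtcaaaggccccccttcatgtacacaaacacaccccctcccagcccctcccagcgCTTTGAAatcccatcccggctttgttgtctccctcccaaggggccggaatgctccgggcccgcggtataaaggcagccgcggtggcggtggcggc
ROR1: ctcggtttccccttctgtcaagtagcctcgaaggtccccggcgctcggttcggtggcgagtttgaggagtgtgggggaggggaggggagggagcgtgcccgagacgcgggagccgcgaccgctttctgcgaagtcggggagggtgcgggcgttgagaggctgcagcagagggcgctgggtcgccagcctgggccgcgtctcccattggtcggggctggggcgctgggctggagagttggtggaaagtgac
FZD4: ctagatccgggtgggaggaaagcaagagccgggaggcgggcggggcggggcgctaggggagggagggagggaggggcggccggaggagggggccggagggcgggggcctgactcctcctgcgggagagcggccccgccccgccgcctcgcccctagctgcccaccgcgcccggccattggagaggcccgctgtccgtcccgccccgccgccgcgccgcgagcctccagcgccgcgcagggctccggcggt

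The motif CTTTGAA in capitals began 95 bases before the DKK1 start. Searched on both strands, CTTTGAA occurred in 1 of the 46 member windows and in 3.81% of all windows, and CTTTGAT in 0 of 46 and 2.27%. The retinoid half-site AGGTCA was found in 2 member windows (TCF7, TCF7L2) against 12.09% of all windows. The half-site AGTTCA was in 3 (RNF43, WNT3, WNT5A) against 8.81%. Direct repeats of such half-sites with 1, 2 or 5 bases between them occurred in no member window and in 0.1%, 0.03% and 0.07% of all windows. Member windows had a median GC content of 68.8% and all windows one of 58.0%. A match describes letters, not a bound site.

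The summed level of the 9 ligands went from 6.18 ± 0.309 TPM to 25.8 ± 0.722 TPM (SD, n = 4). WNT3 was the 1 ligand at 1 TPM or more in both groups, and it rose. WNT5A, WNT5B, WNT6 and WNT11 rose too, but had reached the filter only through the group where they were high, so their number says nothing about the family. WNT5A, the ligand best known for signalling through ROR receptors, was at 0.674, 0.737, 0.683 and 0.601 TPM in undifferentiated replicates 17 to 20. It reached 9.76, 7.66, 8.25 and 10.5 TPM in differentiated replicates 21 to 24. The groups were far apart, and the log2 fold change of TPM + 1 was 2.58 ± 0.11 (SE, adjusted p = 4.31e-07). WNT5A lies on chromosome 3 (GRCh38, chr3:55465715-55490539), and most of its differentiated signal was in the protein-coding transcript WNT5A-201, at 6.82 to 7.24 TPM.

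WNT11, which acts in planar cell polarity and heart development, was near 0 before treatment, at 0.0178, 0.0358, 0.0368 and 0.0184 TPM. The differentiated libraries held 3.52, 4.78, 4.83 and 4.41 TPM, with no overlap (log2 fold change of TPM + 1 of 2.38 ± 0.11, adjusted p = 8.99e-07). The pseudocount of 1 understates the change of a gene this low. WNT11 lies on chromosome 11 (GRCh38, chr11:76186325-76210736).

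WNT3, a ligand of the beta-catenin branch, was the leading Wnt of undifferentiated cells, at 3.44, 3.67, 3.44 and 3.04 TPM. It stood at 7.25, 8.59, 7.20 and 7.06 TPM after treatment, a 2.21-fold rise (adjusted p = 3.11e-05). Replicate 22 was the highest library of that group. WNT5B and WNT6 stayed low, going from means of 0.854 to 1.55 TPM and from 0.757 to 1.69 TPM, with adjusted p = 0.0143 and 0.00418. Neither passed after quantile normalization (adjusted p = 0.0805 and 0.0538). The WNT5B call was also lost within lane 8 (0.0917) and with lane as a covariate (0.0565).

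The make-up of the ligand pool changed with the levels. WNT3 supplied 55.0% ± 3.07 of the ligand TPM in undifferentiated cells and 29.2% ± 3.5 in differentiated cells, while WNT5A went from 10.9% ± 0.627 to 35.0% ± 4.40 and WNT11 from 0.439% ± 0.164 to 17.0% ± 2.41 (SD, n = 4). WNT5A was therefore the first by mean in differentiated cells, but in replicate 22 WNT3 was ahead of it. Of the 4 ligands not tested, WNT2B was at 0.277 to 0.396 TPM before and 0.683 to 1.86 TPM after, and WNT9A at 0.00838 to 0.0418 and 0.213 to 0.405 TPM. Both sets of libraries were apart, and both genes passed when no filter on low values was applied (adjusted p = 0.00828 and 0.0011). WNT4 and WNT10B were at 0.109 TPM or less in every library.

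The Frizzled genes, which encode the main Wnt receptors, split. Of 7 tested, FZD1, FZD2, FZD4, FZD5, FZD6 and FZD7 rose and FZD3 fell, where 33.9% of all genes tested rose and 17.4% fell. FZD5 reached the filter only through the differentiated libraries. Among the 6 at 1 TPM or more in both groups, 5 rose and 1 fell, beside 33% and 17.6% of such genes. FZD6 turned to -0.04 (adjusted p = 0.636) after quantile normalization. FZD2 and FZD6 did not pass after either scaling or within lane 8 (adjusted p = 0.124 and 0.0557), nor did FZD2 with lane as a covariate (0.0873). The summed level of the 9 went from 41.9 ± 1.48 to 68.0 ± 0.50 TPM.

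FZD7, a receptor linked to stem cells and tumours, gave the largest of these changes. It held 5.97, 6.34, 6.27 and 6.33 TPM in undifferentiated libraries and 21.8, 23.6, 22.0 and 22.5 TPM in differentiated ones. That is 3.61-fold, with a log2 fold change of TPM + 1 of 1.70 ± 0.05 (SE, adjusted p = 7.43e-08). The spread within each group was small beside the gap, and FZD7 lies on chromosome 2 (GRCh38, chr2:202034587-202038445). FZD3, known for its role in axon guidance, moved the other way, from 12.3, 13.1, 12.6 and 12.9 TPM to 10.0, 6.45, 8.24 and 8.33 TPM. Every differentiated library was below every undifferentiated one (log2 fold change of -0.58 ± 0.11, adjusted p = 0.0025), and replicate 22 was the lowest.

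FZD1 rose with little spread, from 4.73 to 4.96 TPM to 10.1 to 10.7 TPM (2.17-fold, adjusted p = 2.27e-06). FZD4, the receptor of Norrin as well as of Wnts, went from 1.17 to 1.31 TPM to 2.83 to 4.55 TPM (3.14-fold, adjusted p = 0.000171). FZD5 passed 1 TPM only after treatment and reached the filter that way, at 0.513 to 0.647 TPM before and 1.38 to 1.65 TPM after. FZD2 changed 1.33-fold and FZD6 1.17-fold, and FZD2 also missed the threshold without undifferentiated replicate 17 (adjusted p = 0.0569) or 20 (0.0564). FZD8 and FZD9 were not tested, with means of 0.223 and 0.592 TPM before and 0.962 and 0.972 TPM after. Their libraries did not overlap, and both passed when no filter was applied (adjusted p = 0.000685 and 0.0441).

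The order of the receptors by level was thus rearranged. FZD3 supplied 30.4% ± 1.18 of the Frizzled TPM in undifferentiated cells and led the family in each of those libraries, and supplied 12.1% ± 2.11 in differentiated cells. FZD7 went from 14.9% ± 0.555 to 33.0% ± 1.19 and led in each differentiated library. Below it FZD2 (10.6 ± 1.22 TPM) and FZD1 (10.5 ± 0.32 TPM) could not be ranked within their spread, and FZD6 and FZD3 overlapped.

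**Figure D2:**
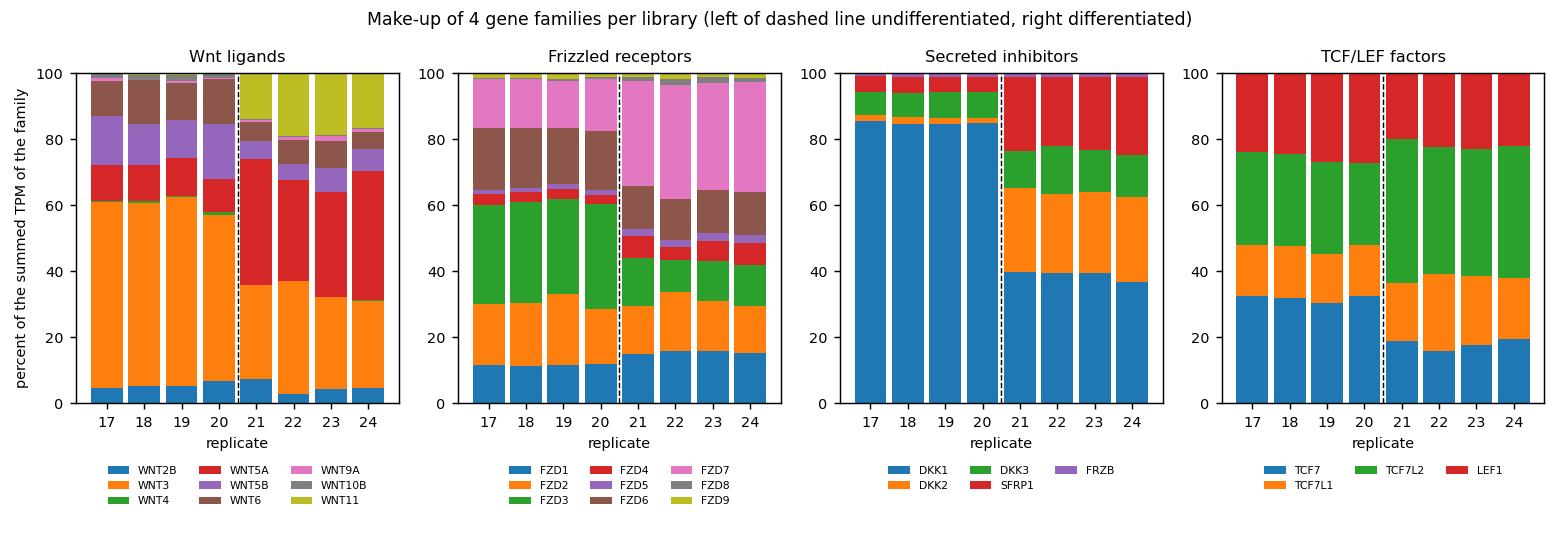
Percent of the summed TPM of 4 families (Wnt ligands, Frizzled receptors, secreted inhibitors, TCF/LEF factors) held by each gene in each library, with undifferentiated replicates 17 to 20 left of the dashed line and differentiated replicates 21 to 24 right of it. WNT3, FZD3, DKK1 and TCF7 take the largest part on the left, and SFRP2 and WIF1, at 0 in every library, are not drawn.

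Among the other receptors the change was in ROR1, a tyrosine kinase-like receptor of WNT5A found in the embryo and in tumours. ROR1 was at 8.46, 7.74, 7.93 and 7.79 TPM before and 24.0, 17.6, 18.6 and 20.6 TPM after treatment. All differentiated libraries lay above, by 2.53-fold (log2 fold change of TPM + 1 of 1.23 ± 0.09, adjusted p = 1.26e-05). ROR1 lies on chromosome 1 (GRCh38, chr1:63774022-64181498). Its partner ROR2 went from 6.57 to 7.56 TPM to 7.53 to 9.69 TPM, overlapping slightly, with adjusted p = 0.029. That call was lost in 9 of 18 alternatives, both scalings included (0.272 and 0.834), and adjusted p ranged from 0.000465 to 0.834. The main coding transcript ROR2-201 went from 4.42 to 4.95 TPM to 6.17 to 6.74 TPM without overlap. The non-coding ROR2-208 went from a mean of 1.53 to 0.823 TPM.

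The coreceptors of the beta-catenin branch changed little. LRP5 was at 19.6, 18.4, 14.4 and 17.1 TPM and then at 14.1, 16, 12.7 and 12.8 TPM, with overlapping groups and an adjusted p of 0.048. That fall was lost in 11 of 18 alternatives, among them coding transcripts alone and leaving out any 1 of 6 libraries. Adjusted p ranged from 0.0134 to 0.578, and the log2 fold change from -0.489 to -0.047. The main coding transcript LRP5-201 was nearly level, at 8.38 ± 0.330 and 8.06 ± 0.437 TPM. LRP6 had means of 17.0 and 17.0 TPM (adjusted p = 0.913), but its differentiated libraries ranged from 12.1 TPM in replicate 22 to 21.8 TPM in replicate 21. RYK, a receptor with an inactive kinase domain, did not pass (31.5 ± 2.02 and 34.1 ± 2.32 TPM, adjusted p = 0.196), but did with protein-coding transcripts alone (0.00922).

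Secreted inhibitors held more transcript than any other role, 351 ± 10.9 TPM before and 531 ± 24.6 TPM after treatment. Dickkopf proteins block LRP5 and LRP6, with DKK3 the divergent member, whereas SFRP1 and FRZB bind Wnts directly. Of the 5 tested, DKK2, SFRP1, DKK3 and FRZB rose and DKK1 fell, where 33.9% of all genes tested rose and 17.4% fell.

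DKK2 had the largest log2 fold change of TPM + 1 of the 36 tested genes, an order that depends on the pseudocount, since with 0.1 in place of 1 WNT11 was ahead (5.13 against 4.33). Undifferentiated libraries held 6.92, 6.51, 6.85 and 5.76 TPM, and differentiated libraries 143, 129.7, 127 and 129.7 TPM. The groups were far apart, at 20.3-fold, with a log2 fold change of TPM + 1 of 4.15 ± 0.07 (SE, adjusted p = 4.36e-09). The gene lies on chromosome 4 (GRCh38, chr4:106921802-107283806), and its first transcript DKK2-201 held 118 to 129.6 of those TPM.

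SFRP1, a secreted decoy related to the Frizzled ligand-binding domain, followed at 17.3, 16.3, 16.5 and 16.2 TPM before and 126, 113, 114 and 120.1 TPM after. No library overlapped, and the rise was 7.13-fold (log2 fold change of 2.76 ± 0.05, adjusted p = 7.05e-09). DKK3 went from 25.5, 25.1, 27.6 and 27.7 TPM to 63.6, 78.4, 66.2 and 64.0 TPM, 2.57-fold (adjusted p = 2.48e-06). FRZB went from 3.13 to 3.92 TPM to 5.66 to 6.82 TPM, 1.68-fold (adjusted p = 0.000509).

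DKK1 (GRCh38, chr10:52314296-52318042), itself a target of beta-catenin signalling, was the most abundant member in both groups by the summed TPM of all its transcripts. Its levels were 309, 284, 299 and 298 TPM in undifferentiated and 222, 214, 203 and 187 TPM in differentiated libraries. Each differentiated library was below each undifferentiated one, a fall to 0.694 of the undifferentiated mean (log2 fold change of -0.53 ± 0.06, adjusted p = 0.000102). Part of that signal came from non-coding transcripts of DKK1, with DKK1-203 alone at 53.7 to 65.6 TPM before and 30.8 to 44.1 TPM after. The coding transcript DKK1-201 averaged 180 TPM before and 134 TPM after. The coding transcripts CTNNB1-201, CTNNB1-202 and CTNNB1-203 averaged 104.9, 24.7 and 20.7 TPM after treatment. The first place of DKK1 after treatment thus rested on its non-coding transcripts.

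The inhibitor pool went from mainly DKK1 to a mixture. DKK1 made up 84.8% ± 0.398 of the inhibitor TPM in undifferentiated cells and 38.8% ± 1.31 in differentiated cells, where DKK2 held 24.9% ± 0.784, SFRP1 22.3% ± 1.2 and DKK3 12.8% ± 1.29 (SD, n = 4). These shares count non-coding transcripts too. After treatment the non-coding DKK3-206 averaged 31.0 of the 68.1 TPM of DKK3. The coding transcript DKK1-201 averaged 133.9 TPM after treatment, close to the 132.4 TPM of DKK2 as a whole. DKK2 was above SFRP1 in each differentiated library. SFRP2 and WIF1 were listed at 0 in all 8 libraries.

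R-spondins bind LGR4, LGR5 and the ubiquitin ligases RNF43 and ZNRF3, and so keep Frizzled receptors at the surface. Both tested genes of that branch rose, as did 33.9% of all genes tested. LGR5, a stem cell marker and target of beta-catenin signalling, was already high at 115, 98.6, 109 and 102 TPM. After treatment it held 206, 167, 163 and 174 TPM, 1.67-fold, with the groups apart (log2 fold change of 0.73 ± 0.08, adjusted p = 0.000131). LGR4 went from 6.10 to 6.75 TPM to 7.94 to 10.0 TPM (1.37-fold, adjusted p = 0.00304), a call lost after quantile normalization (0.0896).

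The ligands and the ligases of that branch were scarce. RSPO1 was at or below 0.0453 TPM and RSPO3 was listed above 0 in 1 library only, at 0.0331 TPM. RNF43 stayed at or below 0.0756 TPM and ZNRF3 at or below 0.192 TPM. NKD1, a feedback inhibitor that binds Dishevelled, was at 1.44, 1.24, 1.11 and 1.22 TPM before and 0.783, 0.434, 0.348 and 0.578 TPM after. Its mean over 8 libraries missed the filter, the groups did not overlap, and with no filter its log2 fold change was -0.56 ± 0.11 (adjusted p = 0.00535).

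Beta-catenin and its destruction complex were nearly level. CTNNB1, the gene of beta-catenin, was at 141, 143, 145 and 145 TPM before and 172, 153, 158 and 169 TPM after, a 1.13-fold difference (adjusted p = 0.0106). That rise was lost after both scalings and within lane 8, with adjusted p = 0.301 after median-of-ratios scaling, 0.0637 after quantile normalization and 0.108 within lane 8. AXIN2, the feedback scaffold often read as a gauge of beta-catenin signalling, was at 4.66, 4.58, 4.46 and 4.45 TPM and then at 5.74, 4.47, 4.85 and 6.25 TPM (adjusted p = 0.159). Without replicate 22 AXIN2 passed (0.0395), as did the kinase GSK3B (0.0473), which was lowest in that library at 25.1 TPM. AXIN1 (7.84 and 8.62 TPM) and APC (9.13 and 9.28 TPM) did not pass, and APC ranged from 6.89 to 13.7 TPM among differentiated libraries.

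The TCF/LEF factors changed in opposite directions. TCF7L2 rose from 8.49, 7.84, 8.16 and 7.52 TPM to 15.7, 13.6, 13.4 and 13.8 TPM (1.77-fold, adjusted p = 3.55e-05). TCF7 fell from 9.68, 8.93, 8.99 and 9.79 TPM to 6.80, 5.54, 6.20 and 6.76 TPM (0.677 of the undifferentiated mean, adjusted p = 0.000747). Neither overlapped between groups. TCF7L1, mainly a repressor, rose 1.56-fold (4.42 to 4.65 TPM before, 6.33 to 8.35 TPM after), a call lost after quantile normalization (adjusted p = 0.117). LEF1 had means of 7.54 and 7.72 TPM (adjusted p = 0.743). TCF7 went from 31.8% ± 0.962 to 17.9% ± 1.69 of the family's TPM and TCF7L2 from 27.2% ± 1.54 to 40.1% ± 2.39, so that the first place passed from TCF7 to TCF7L2 in each library.

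Of the planar cell polarity genes, which orient cells within a tissue, VANGL2 rose from 30.7, 30.4, 30.7 and 30.5 TPM to 44.4, 35.3, 39.1 and 42.1 TPM (1.32-fold, adjusted p = 0.00187). VANGL1 rose 1.48-fold (4.89 to 5.60 TPM before, 6.28 to 9.53 TPM after), a call lost within lane 8. PRICKLE1 fell from 18.9 to 21.3 TPM to 13.8 to 18.6 TPM, with adjusted p = 0.0463 that was lost in 10 of 18 alternatives and ranged from 0.000285 to 0.183. PRICKLE2 stayed at or below 0.159 TPM.

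**Figure D3:**
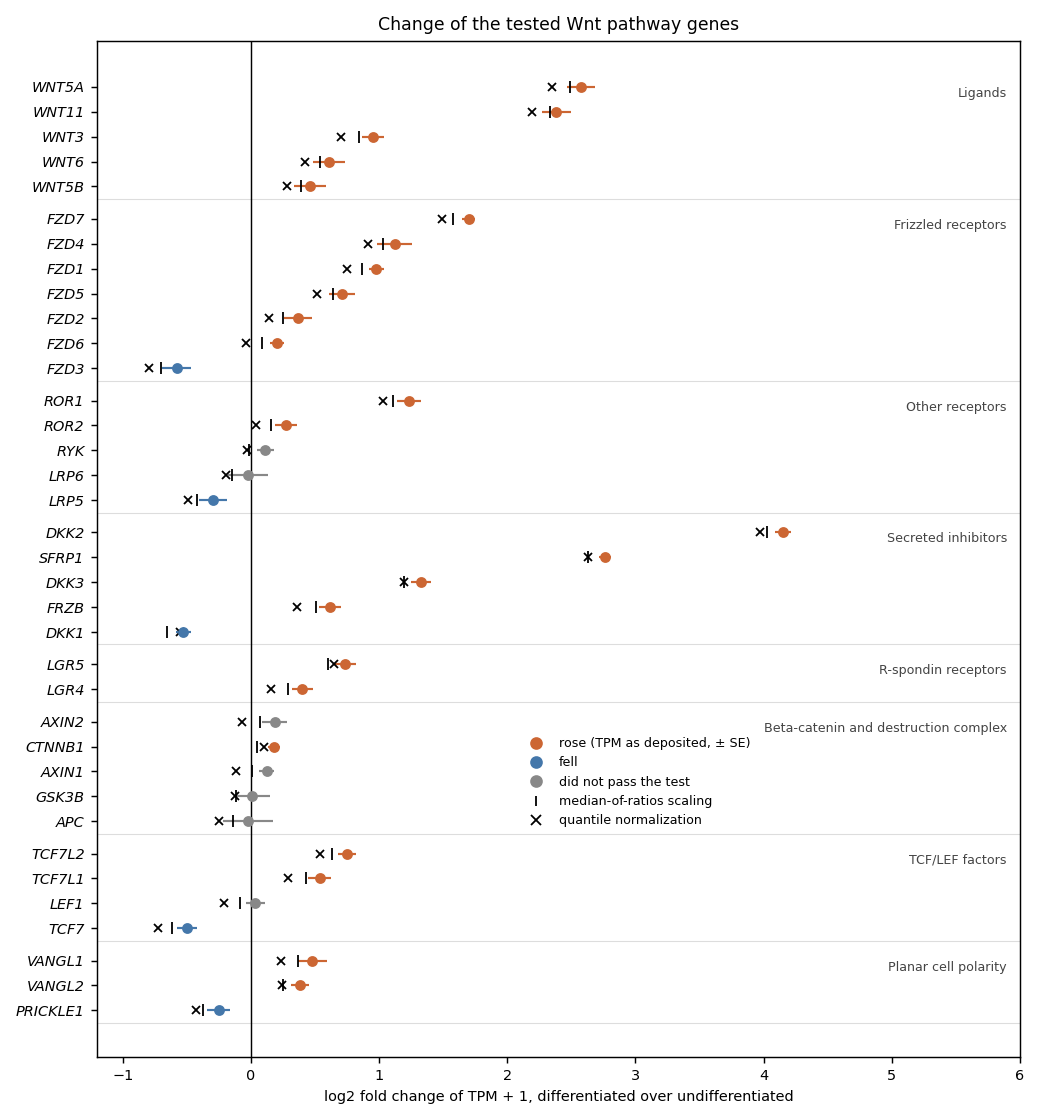
Log2 fold change of TPM + 1 of the 36 tested genes by role, as points with standard errors for deposited TPM, with bars for median-of-ratios scaling and crosses for quantile normalization. DKK2 (4.15) stands at the right end and FZD3 (-0.58) at the left, and both scalings lie to the left of the deposited value for all 36 genes.

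Transcript use changed in few members. Shares of 45 transcripts from 19 of the genes were tested, and 3 passed, in VANGL1 and ROR2, where 2.39% of 22951 transcripts passed over all genes. The coding transcript VANGL1-203 held 24.96%, 12.1%, 17.8% and 26.3% of VANGL1 in undifferentiated libraries and was listed at 0 in all 4 differentiated ones (adjusted p = 0.00232). VANGL1-202 made up most of the rest, from 76.2% ± 5.46 to 97.2% ± 3.13 (adjusted p = 0.0162). ROR2-208, a non-coding transcript, went from 22.0% ± 3.61 to 9.53% ± 2.79 of ROR2 (adjusted p = 0.0249). Within lane 8, where 0.0924% of 22734 transcripts passed, VANGL1-202 and ROR2-208 did not (adjusted p = 0.169 and 0.216), and VANGL1-203 fell under the minimum mean share of 10% and was not tested. VANGL1-203 was likewise not tested without any 1 of the undifferentiated replicates 17 to 20. VANGL1-202 missed the threshold without replicate 17, 19, 20 or 23 (adjusted p from 0.0525 to 0.0573), and ROR2-208 without 18, 19, 20, 23 or 24 (0.0603 to 0.0825).

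Other genes of the pathway were read from a separate list of 74, of which 52 were tested. Of these, 22 rose, 9 fell and 21 did not pass, with a median log2 fold change of 0.17, where 33.9% of all genes tested rose and 17.4% fell. Median-of-ratios scaling gave 17 rises and 14 falls there, beside 27.1% and 26.1% of all genes, and quantile normalization 18 and 14, beside 24.4% and 29.9%. WLS, the carrier that takes Wnts to the cell surface, rose from 40.1 ± 0.417 to 51.3 ± 4.94 TPM (adjusted p = 0.00298). PORCN, which adds their lipid, did not pass in the deposited TPM. Only 2 of the 13 genes of this ligand and secretion list were tested. Median-of-ratios scaling and quantile normalization each gave 1 rise and 1 fall among those 2. Of 12 receptor partners, 10 were tested, 4 rose and 3 fell, led by a fall of the glypican GPC3 (14.9 to 4.83 TPM) and rises of CELSR1 (2.22 to 5.22 TPM), the Dickkopf receptor KREMEN1 (4.11 to 8.44 TPM) and GPC4 (1.11 to 2.11 TPM).

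The other secreted regulators added SFRP4 (0.0951 ± 0.0536 to 3.27 ± 0.629 TPM, adjusted p = 5.55e-06) and SOSTDC1 (0.855 to 1.65 TPM, adjusted p = 0.00813), the only 2 of 9 that were tested. Neither gene was at 1 TPM in undifferentiated cells. SOSTDC1 did not pass after quantile normalization (0.0563) or within lane 8 (0.0697). Of 38 intracellular genes tested, 15 rose and 6 fell, near the 33.9% and 17.4% of all genes tested. Median-of-ratios scaling gave 11 and 9, beside 27.1% and 26.1% of all genes, and quantile normalization 13 and 9, beside 24.4% and 29.9%. The Groucho corepressors diverged, with TLE2 up from 4.46 to 19.7 TPM and TLE1 down from 28.2 to 13.04 TPM. CXXC4, an inhibitor of Dishevelled, fell from 16.9 to 6.79 TPM and the formin-related DAAM2 from 3.37 to 1.3 TPM.

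Genes known to rise with beta-catenin and TCF signalling did not move one way. Of 30 listed, 18 were tested, 10 rose, 6 fell and 2 (AXIN2 and LEF1) did not pass, with a median log2 fold change of 0.30. Over all genes tested, 33.9% rose and 17.4% fell. Median-of-ratios scaling left 7 rises and 6 falls, beside 27.1% and 26.1% of all genes, and quantile normalization 8 and 6, beside 24.4% and 29.9%. The largest changes were a fall of MYC from 53.0 to 5.82 TPM and rises of SOX9 from 2.19 to 20.6 TPM, TNFRSF19 from 1.51 to 6.21 TPM and CD44 from 1.14 to 4.11 TPM. Of the 8 that are also among the 50 genes, 5 were tested, LGR5 rose, and DKK1 and TCF7 fell. NOTUM, a secreted enzyme that removes the lipid of Wnts and is induced by them, was below the filter at 1.01 and 0.535 TPM. These genes have other inputs, and a transcript level does not measure beta-catenin activity.

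**Figure D4:**
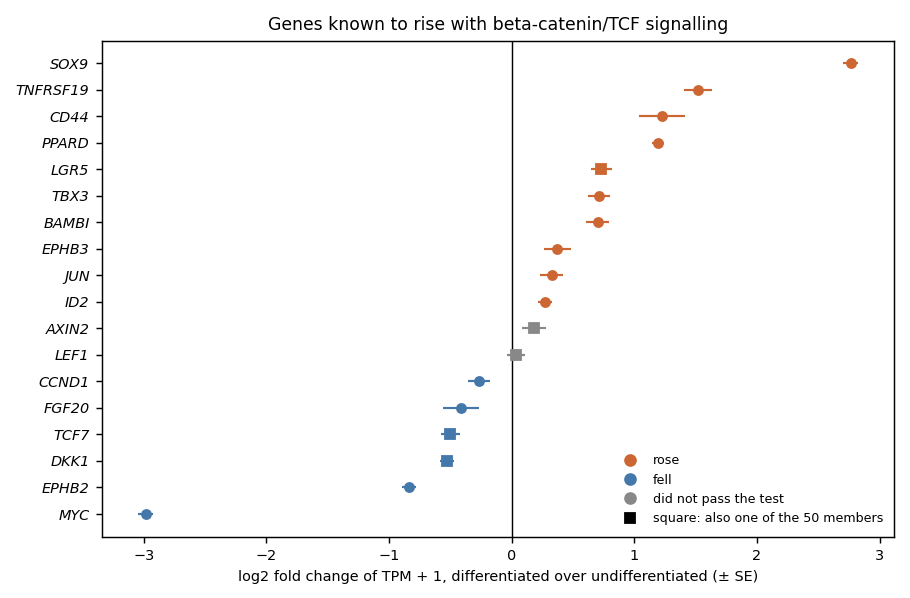
Log2 fold change of TPM + 1 with standard error for the 18 tested genes known to rise with beta-catenin and TCF signalling, with squares for those among the 50 Wnt genes. SOX9 lies at 2.76 and MYC at -2.99, with AXIN2 and LEF1 in grey near 0.

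Markers of other cell states changed beside these genes. Their counts stand beside 33.9% of all genes tested that rose and 17.4% that fell. Of 12 mesenchymal and fibroblast markers 10 were tested, 6 rose and 0 fell, and their sum went from 455 to 502 TPM to 1330 to 1434 TPM, with VIM and COL3A1 high and PRRX1 and COL1A2 near 0 in both groups. Schwann cell markers summed to 6.50 to 8.61 TPM and then to 15.0 to 18.6 TPM, with the defining SOX10 and FOXD3 at 0 in all libraries. Of the 3 Schwann cell markers tested, 1 rose and 0 fell. Epithelial markers summed to 2.31 to 3.75 TPM and then to 13.7 to 18.3 TPM, mostly KRT18, with KRT5 at 0. Of the 3 epithelial markers tested, 2 rose and 0 fell. Of 6 proliferation genes, 5 fell, and their sum went from 1125 to 1154 TPM to 767 to 791 TPM. The part of these shifts in the Wnt gene changes was not tested.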

How the data were processed

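The authors deposited TPM for 194993 Ensembl transcripts in 8 libraries, 4 per group. The submitters' processing notes name FastQC 0.11.2, Salmon and genome build GRCh37. No release of Salmon, annotation or strand setting is given in the sources used here. Per the labels' protocols, libraries were made with a stranded mRNA kit. Salmon divides reads shared by similar sequences, so close paralogs carry that uncertainty.

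Transcripts were matched by identifier to GENCODE 29 (GRCh38); 180930 (92.8%) matched, holding 93.2% to 95.0% of the TPM of a library, and were summed to 52719 genes. All genes averaging at least 1 TPM entered a limma fit (version 3.58.1, R 4.3.3, eBayes with trend, two-sided) on log2(TPM+1), pseudocount 1. A call needed an adjusted p (Benjamini-Hochberg, over all genes tested) below 0.05. Fold changes on that scale understate the change of low genes, and plain folds are ratios of mean TPM. Transcript shares were tested with limma on the arcsine square root of the share, in genes of 5 TPM or more in each group and transcripts with a mean share of 10% to 90%, with a call also needing 10 percentage points. Steps were tested on simulated data. Promoter windows came from a RefSeq table on GRCh38.p14. Figures were drawn with matplotlib 3.10.9.

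The members and lists were chosen with earlier results of these data known. All 50 members are reported, with up to 4 called genes of each other list that had the largest changes, CYP26A1 and RARB as a treatment check, and every called transcript of a member. Alternatives were other pseudocounts, filters and scalings, lane 8 alone, lane as a covariate, coding transcripts alone, no trend, an exact permutation test and each replicate left out.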

Additional observations from a re-analysis of the deposited data

Results flagged for a closer look

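Among 72 checks of a member within a group of 4 libraries, 3 had a library whose gap to its nearest neighbour took more of the group's range than Dixon's 95% critical value for 4 samples, where chance gives about 1 in 20. WNT3 in differentiated replicate 22 was high at 8.59 TPM, with the next library at 7.25 TPM. FZD2 in the same replicate was high at 12.4 TPM, with the next at 10.1 TPM. DKK2 in differentiated replicate 21 was high at 143 TPM, with the next at 129.7 TPM.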

How the results depend on the processing

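Of 24 rises, 15 kept their call in each alternative in which they were tested, other than the exact permutation test (DKK2, DKK3, FRZB, FZD1, FZD4, FZD5, FZD7, LGR5, ROR1, SFRP1, TCF7L2, VANGL2, WNT11, WNT3 and WNT5A), and of 5 falls 3 did (DKK1, FZD3 and TCF7). FRZB, FZD4, WNT11 and WNT5A were tested in 17 of 18, being under the filter of 5 TPM, and FZD5 in 14. Over 636 member values under those alternatives, 583 kept their side of the threshold, 49 lost a call and 3 gained one. A change of sign was counted only where either fit gave a call. That held for 1 value, FZD6, which lost its call at -0.0413 after quantile normalization. Genes without a call also changed sign, such as LEF1 (0.0327 as deposited and -0.210 after quantile normalization). The count of members fallen was 3 within lane 8, with lane as a covariate and with no trend, and 3 to 5 with 1 replicate left out, while members risen ranged from 22 to 26. Genes fallen over the whole table numbered 5098 after quantile normalization and 1886 within lane 8. Member transcript shares called numbered 0 within lane 8 and 0 to 3 with 1 replicate left out, in part because VANGL1-203 then fell under the minimum mean share. The cause of the other changes was not tested. With 4 libraries against 4, the exact permutation test has a smallest p of 0.0286 and gave 0 calls in all 4 counts (smallest adjusted p 0.0576), beside 8475 genes at an unadjusted p under 0.05 there and 9685 with limma. No paired analysis was possible because the groups share no replicate numbers. Depth is unknown, so no counting error can be given for levels near 0.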
